A study of Mus musculus with 12 samples.

Results

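The regions described here are accessible domains of mouse motor neuron cultures that were present after induction of each of the Hox genes Hoxc6, Hoxc9 and Hoxc10 and in none of the uninduced groups. A region was taken from the iHoxc9 list when it was at least 150 bp wide, lay on chromosomes 1 to 19, X or Y, overlapped a domain of the iHoxc6 list and a domain of the iHoxc10 list by at least 1 bp, and overlapped no domain of the 3 uninduced lists. Of the 31062 iHoxc9 domains of at least 150 bp, 2978 (9.59%) overlapped no uninduced domain. Of those 2978, 419 (14.1%) were also in the iHoxc6 and iHoxc10 lists. These 419 are called the shared domains. They were selected on the overlaps and the iHoxc9 width, so their presence in the induced lists and their absence from the uninduced lists are a description and carry no test.

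Chromatin accessibility was profiled by ATAC-seq in 12 samples of mouse embryonic stem cell (ESC) derivatives, 2 in each of 6 groups. Embryoid bodies (EBs) before patterning and progenitors after 2 days of 1 µM retinoic acid (RA) and 0.5 µM of the Smoothened agonist SAG came from the Ainv15(iCre) line, with no Dox. The iHoxc6, iHoxc9 and iHoxc10 cells came from lines Ainv15(iFlag.Hoxc6), Ainv15(iFlag.Hoxc9) and Ainv15(iFlag.Hoxc10). Each carried an N-terminally Flag-tagged Hox transgene as a single copy at the HPRT locus. They were collected at day 4 of RA and SAG, after 48 h of doxycycline (Dox, 3 µg/mL) added at day 2. The no Dox day 4 group came from the Ainv15(iFlag.Hoxc6) line, received the same RA and SAG, and its sample records belong to a later run of accession numbers. Dox itself was given to all 3 induced groups and to no uninduced group, so a response to Dox and a response to a Hox transgene cannot be told apart here. A single list of domains per group was made from both of its samples, so no spread between replicates and no test between groups could be had, and read depth is unknown.

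The 6 lists held 482514 domains in all on these chromosomes, from 56232 in iHoxc10 to 94875 in EBs. The no Dox list covered the most sequence, 29.7 Mb, and the iHoxc9 list the least, 17.8 Mb. The no Dox list had 6 columns where the others had 3, and its name carried a significance limit and another day, so other calling settings are possible for it; their part in its contrast with the induced lists was not tested. Shares below carry 95% Wilson intervals, in parentheses. These cover the counting of domains only, and no interval covers variation between cultures.

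Hox genes encode homeodomain transcription factors that give cells their position along the head-to-tail axis. In the spinal cord they set which motor neuron columns and pools form at limb and thoracic levels. Central Hox proteins such as HOXC6 favour a TAAT core, posterior ones such as HOXC9 and HOXC10 also read a TTTAT core, and the TALE homeodomain cofactors of the PBX and MEIS families bind beside them on composite sites. Motor neuron progenitors are also under the control of basic helix-loop-helix factors, which bind E-boxes such as CAGCTG, and later of ONECUT and LIM homeodomain factors.

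Of the 10 shared domains with the largest minimum width over the 3 induced lists, the first 6 that touched no exon are printed to show what such a domain looks like. Each line gives the central 200 bp of the iHoxc9 domain in GRCm38 (mm10), plus strand, 5′ to 3′, with the posterior Hox core TTTAT, on either strand, in capitals. Sites are named after a nearby gene.
Zfp536 site, chr7:37308272-37308471: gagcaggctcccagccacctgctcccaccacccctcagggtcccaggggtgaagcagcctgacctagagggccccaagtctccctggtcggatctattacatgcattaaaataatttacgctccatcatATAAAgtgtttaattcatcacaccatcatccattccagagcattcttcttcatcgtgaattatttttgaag
1700129C05Rik site, chr14:58987939-58988138: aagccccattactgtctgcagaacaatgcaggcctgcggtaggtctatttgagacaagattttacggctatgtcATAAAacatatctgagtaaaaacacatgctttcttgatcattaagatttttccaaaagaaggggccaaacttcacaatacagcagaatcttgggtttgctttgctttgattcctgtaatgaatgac
Dph6 site, chr2:114492714-114492913: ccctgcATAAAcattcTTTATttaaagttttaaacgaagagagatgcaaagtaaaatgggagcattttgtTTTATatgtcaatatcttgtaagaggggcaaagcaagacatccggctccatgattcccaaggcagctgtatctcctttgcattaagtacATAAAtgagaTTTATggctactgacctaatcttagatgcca
Apob site, chr12:7739258-7739457: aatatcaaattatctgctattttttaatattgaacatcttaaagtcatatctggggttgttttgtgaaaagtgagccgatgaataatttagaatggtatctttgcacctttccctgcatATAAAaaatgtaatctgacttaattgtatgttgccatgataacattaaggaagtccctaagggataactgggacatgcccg
Cct6b site, chr11:82651637-82651836: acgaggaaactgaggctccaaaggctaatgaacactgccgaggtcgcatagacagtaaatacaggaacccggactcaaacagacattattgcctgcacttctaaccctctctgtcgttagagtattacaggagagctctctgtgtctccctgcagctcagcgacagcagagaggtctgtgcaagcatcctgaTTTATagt
Cdk14 site, chr5:4858204-4858403: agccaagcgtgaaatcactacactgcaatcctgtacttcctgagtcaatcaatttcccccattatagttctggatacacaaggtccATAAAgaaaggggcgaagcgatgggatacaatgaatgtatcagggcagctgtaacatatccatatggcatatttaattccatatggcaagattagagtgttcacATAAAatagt

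All 6 of these 200 bp windows held at least 1 posterior core, and the Dph6 window held 5. In the central 150 bp, the window used for the shares below, the Cct6b site held 0. In that window TTTAT was in 64.7% of all shared domains and in 27.3% of all iHoxc9 domains of at least 150 bp. The Zfp536 site was 576 bp wide in iHoxc6, 578 bp in iHoxc9 and 796 bp in iHoxc10. It lay in intergenic sequence 465 kb from the TSS of Zfp536, a zinc finger repressor of neuronal differentiation, and its nearest uninduced domain was 4.632 kb away. The Dph6 site was 458, 655 and 497 bp wide in the same order of lists. It was 12.191 kb from the nearest EB domain and 55.47 kb from the nearest no Dox domain. The Apob site was 470, 452 and 470 bp wide and lay in an intron of the gene Gm32828, 238 kb from the TSS of the apolipoprotein gene Apob. A no Dox domain ended 280 bp from it, the smallest such distance among the 10 widest. The Cdk14 site was 503, 437 and 420 bp wide and lay in an intron of Cdk14, a cyclin-dependent kinase gene, 100 kb from the TSS of the Wnt receptor gene Fzd1.

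A composite of a PBX half-site and the posterior core, TGATTTAT, was found in the central 150 bp of 18 of the 419 shared domains. The 4 widest of these by the same measure and limits are printed because they carry the sequence that PBX and posterior Hox proteins bind together. Here the capitals mark the composite on either strand.
Slc4a4 site, chr5:89147379-89147578: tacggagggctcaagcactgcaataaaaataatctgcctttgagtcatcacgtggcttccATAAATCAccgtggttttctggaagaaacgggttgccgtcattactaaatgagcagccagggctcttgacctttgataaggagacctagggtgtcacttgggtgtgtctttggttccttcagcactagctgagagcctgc
Foxp1 site, chr6:98933400-98933599: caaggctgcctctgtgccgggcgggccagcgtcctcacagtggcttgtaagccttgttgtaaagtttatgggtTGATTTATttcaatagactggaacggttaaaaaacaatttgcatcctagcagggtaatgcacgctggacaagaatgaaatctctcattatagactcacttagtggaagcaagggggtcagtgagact
Csf3r site, chr4:125911683-125911882: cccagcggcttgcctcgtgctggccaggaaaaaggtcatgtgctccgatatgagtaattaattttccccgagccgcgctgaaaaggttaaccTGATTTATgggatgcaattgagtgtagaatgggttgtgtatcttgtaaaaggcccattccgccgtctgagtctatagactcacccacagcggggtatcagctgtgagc
Sptlc3 site, chr2:139054715-139054914: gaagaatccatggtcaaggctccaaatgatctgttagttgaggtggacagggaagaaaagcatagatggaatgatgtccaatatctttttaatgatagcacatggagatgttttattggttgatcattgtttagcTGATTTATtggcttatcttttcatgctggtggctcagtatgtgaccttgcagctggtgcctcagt

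The Foxp1 site lay in an intron of Foxp1, which encodes a forkhead factor that acts with Hox proteins in limb-innervating motor neurons. It was 258 bp wide in iHoxc6, 244 bp in iHoxc9 and 291 bp in iHoxc10. No uninduced domain lay within 10 kb of it, the nearest being a no Dox domain at 12.468 kb. The Slc4a4 site, in an intron of a sodium bicarbonate cotransporter gene, was 289, 434 and 296 bp wide. The Csf3r site was 245, 263 and 216 bp wide and had an uninduced domain of each list within 1 kb. The Sptlc3 site, in intergenic sequence, was 191, 311 and 567 bp wide and its nearest uninduced domain was 22.233 kb away.

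The shared domains were narrowest, on the median, in the iHoxc6 list. Their widths in the iHoxc9 list, on which they were selected, ran from 151 to 931 bp with a median of 291 bp (quartiles 215 and 407). In iHoxc10 the overlapping domain ran from 4 to 1096 bp with a median of 223 bp (quartiles 118.5 and 349). In iHoxc6 it ran from 12 to 1042 bp with a median of 157 bp (quartiles 47 and 267.5). The medians of whole lists were 145, 212.5 and 129 bp in the same order.

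In iHoxc6, 214 of the 419 overlapping domains (51.1%, 46.3 to 55.8) were at least 150 bp wide, against 45.1% of the whole iHoxc6 list. A further 115 (27.4%, 23.4 to 31.9) were under 50 bp wide there. In iHoxc10, 280 (66.8%, 62.2 to 71.2) reached 150 bp, against 60.1% of the whole list, and 47 were under 50 bp. An overlap rule meets wide domains more readily, and the domain with the largest overlap was taken. The whole lists had no such selection, so these shares and the medians above do not compare like sets. At least 150 bp in all 3 lists was reached by 154 shared domains (36.8%, 32.3 to 41.5). The label of opening by all 3 factors therefore rests for most members on a narrower call in at least 1 list. A shared domain was narrowest in iHoxc6 in 235 cases, in iHoxc10 in 139 and in iHoxc9 in 45, where the width limit acted on iHoxc9 alone.

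**Figure D1:**
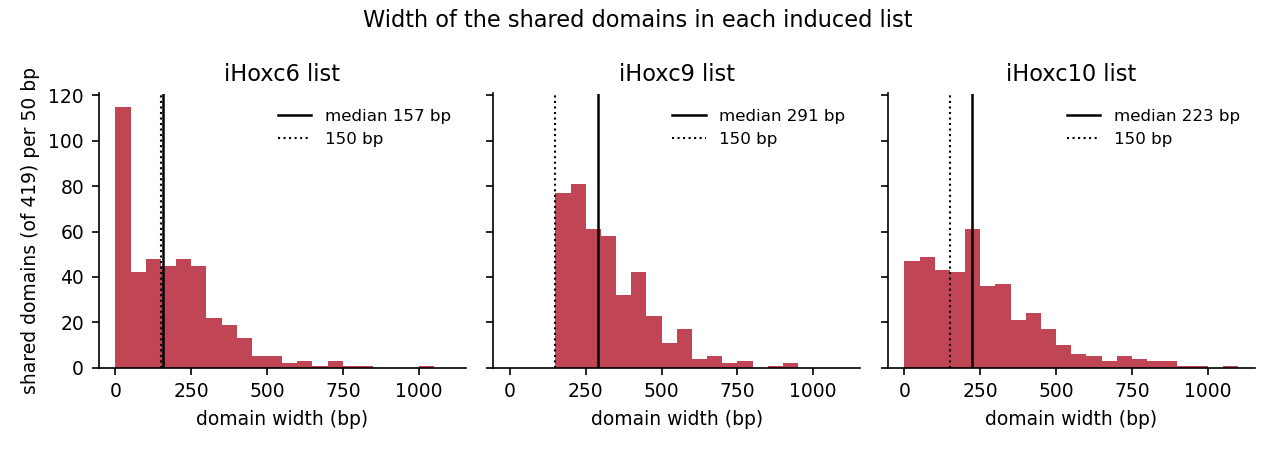
Histograms of the width (bp, 50 bp bins) of the 419 shared domains in the iHoxc6, iHoxc9 and iHoxc10 lists. The solid line is the median (157, 291 and 223 bp) and the dotted line the 150 bp limit that the selection set for iHoxc9 only; 115 iHoxc6 domains fall in the first bin.

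Widths in 1 list told little of the widths in another. Over the 419 shared domains, which share the cut at 150 bp in iHoxc9, Spearman's rho was 0.06 between iHoxc6 and iHoxc9, 0.21 between iHoxc9 and iHoxc10 and 0.13 between iHoxc6 and iHoxc10. Pearson's r was 0.04, 0.21 and 0.23. Overlap was required by the selection, which limits how far apart the centres can lie, so positions are given as a description only. The centre of the iHoxc6 domain lay within 100 bp of the iHoxc9 centre in 320 cases (76.4%, 72.1 to 80.2), and that of the iHoxc10 domain in 317 (75.7%, 71.3 to 79.5). The median distance between centres was 52 bp for both. Overlaps reached at least 50% of the shorter domain for 400 of the iHoxc6 domains and 391 of the iHoxc10 domains. The smallest overlaps were 12 bp in iHoxc6 and 1 bp in iHoxc10, and 5 overlaps with iHoxc10 were of 10 bp or less.

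At the edge of the selection, the narrowest shared domain was 151 bp wide in iHoxc9 and 31 were under 170 bp. Another 55 domains of at least 130 bp but under 150 bp met the rest of the rule. An uninduced domain lay within 20 bp of 6 shared domains. Conversely, 15 iHoxc9 domains in all 3 induced lists were left out for an overlap of 20 bp or less with uninduced domains.

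Most shared domains lay kilobases away from any uninduced domain. The median distance to the nearest domain was 10.5 kb for EBs, 9.23 kb for day 2 progenitors and 7.01 kb for no Dox. To the nearest of the 3 lists it was 3.198 kb (quartiles 1.04 and 9.32). For 97 shared domains (23.2%, 19.4 to 27.4) no uninduced domain lay within 10 kb. At the other end, 102 (24.3%, 20.5 to 28.7) had an uninduced domain within 1 kb and 39 within 200 bp. No Dox domains lay nearby most often. They were within 500 bp of 54 shared domains, against 24 for progenitors and 18 for EBs, and the no Dox list also covered the most sequence.

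**Figure D2:**
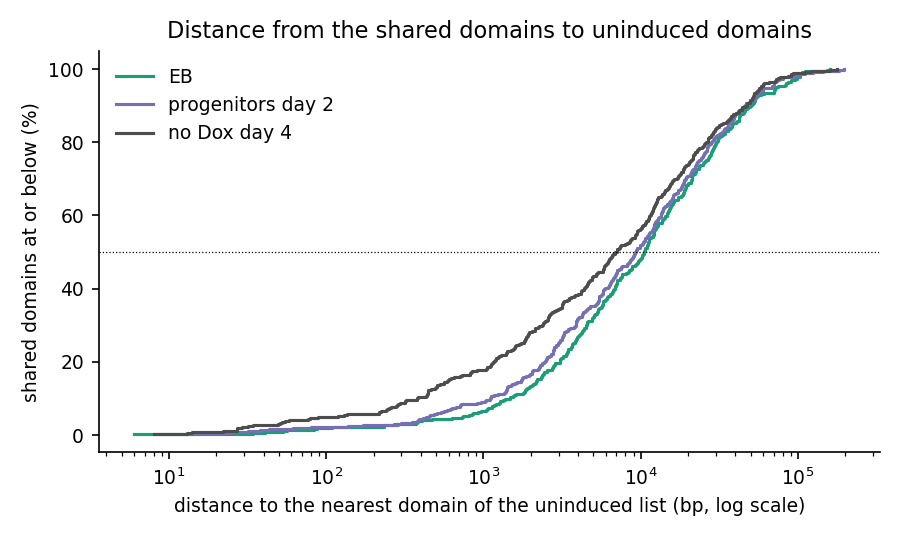
Cumulative share (%) of the 419 shared domains by distance (bp, log scale) to the nearest domain of the EB, day 2 progenitor and no Dox day 4 lists. The curves cross the dotted 50% line at 10.5, 9.23 and 7.01 kb, and the no Dox curve lies to the left.

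The shared domains lay away from promoters. With promoters taken as 1 kb either side of the TSS of protein-coding genes, 3 of 419 (0.716%, 0.244 to 2.08) were at a promoter, 23 touched an exon, 216 (51.6%, 46.8 to 56.3) lay in introns and 177 (42.2%, 37.6 to 47.0) in intergenic sequence. Among all 31062 iHoxc9 domains of at least 150 bp, 36.1% were at promoters. The 3 promoters were those of Hoxc4, 4930550C14Rik and Clca3b, a chloride channel accessory gene. The Clca3b domain was 98, 190 and 135 bp wide in iHoxc6, iHoxc9 and iHoxc10 and lay 79 bp from a no Dox domain. The 4930550C14Rik domain was 545, 318 and 219 bp wide. The median distance to a TSS was 101 kb for the shared domains and 12.9 kb for all iHoxc9 domains of at least 150 bp.

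Other domains that appeared at day 4 were likewise rare at promoters. The share at promoters was 0.995% (0.457 to 2.15) for the 603 domains found in iHoxc9 and iHoxc10 only, 0.751% (0.430 to 1.31) for the 1598 found in iHoxc9 only, and 1.67% (1.13 to 2.46) for the 1496 found in all 4 day 4 groups, no Dox included, but not in EBs or progenitors. The share in introns was 44.4% (40.5 to 48.4), 43.9% (41.5 to 46.3) and 47.3% (44.7 to 49.8). The interval of the shared domains overlapped the first and the third of these and lay just above that of the iHoxc9-only set. In intergenic sequence the shares were 50.2% (46.3 to 54.2), 51.3% (48.9 to 53.8) and 44.1% (41.6 to 46.6). There the interval of the shared domains lay below that of the iHoxc9-only set and overlapped the others. The median distances to a TSS were 123, 141 and 95.4 kb.

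**Figure D3:**
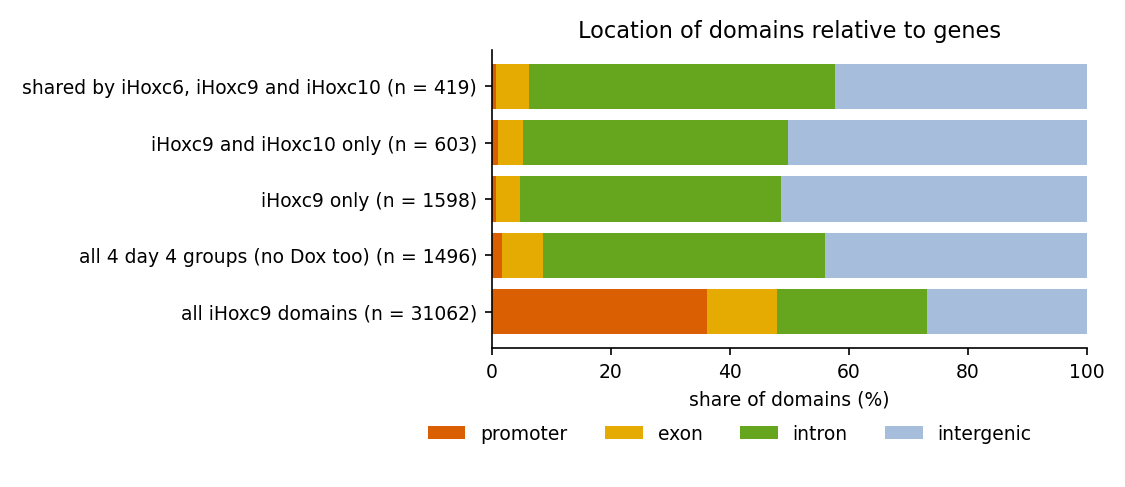
Stacked bars of the share (%) of domains at promoters (TSS plus or minus 1 kb), in exons, in introns and in intergenic sequence for 5 sets of iHoxc9 domains of at least 150 bp. The top 4 sets, all absent from EBs and progenitors, have 0.716 to 1.67% at promoters, against 36.1% of all.

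The shared domains were spread over the genome. Chromosome 2 held 39 (9.31%), against 8.32% of all iHoxc9 domains of at least 150 bp. Chromosome X held 7 (1.67% against 2.36%) and chromosome Y none (0.113% of all). Chromosome 19 held 2, which was 0.477% against 2.33% of all. The median distance to the next shared domain was 1915 kb, and 24 of the 419 lay within 50 kb of another. They were nearest to the TSS of 388 protein-coding genes, of which 359 had 1 shared domain, 27 had 2 and 2 had 3. Dach1, a transcriptional cofactor, and Celf4, a neuronal RNA-binding protein gene, were the pair with 3. The neighbouring TSSs were 2475 kb apart around Dach1 and 5104 kb around Celf4, and the 2 gene bodies held 2 and 1 shared domains. The 3 domains nearest to Celf4 were 360, 243 and 191 bp wide in iHoxc6, 388, 343 and 299 bp in iHoxc9 and 458, 458 and 431 bp in iHoxc10. The first of them lay 1066 kb from the TSS of Celf4. Of those nearest to Dach1 none reached 150 bp in iHoxc6, where they were 148, 32 and 30 bp wide. The next genes, ordered by a smaller gap between the neighbouring TSSs, were Pdia5, Gm17364, Btc, Ap3b1, Sh2d4a, Aff3, Cpa6 and Acss3, with 2 each. The pair at the disulfide isomerase gene Pdia5 were 275 and 234 bp wide in iHoxc9 but overlapped the same iHoxc6 domain of 618 bp and the same iHoxc10 domain of 581 bp.

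Inside the Hox clusters there were 3 shared domains, 1 each in HoxB, HoxC and HoxD and none in HoxA. The Hox genes that held them or were nearest to them, Hoxd3, Hoxd4, Hoxc4 and Hoxb5, belong to the anterior group. These were 4 of 39 Hox genes (10.3%, 4.06 to 23.6), against 2.06% of all protein-coding genes with a shared domain in the gene or nearest to its TSS. Hoxd3 and Hoxd4 were counted for the same domain. The HoxD domain (chr2:74721708-74722148) touched an untranslated exon of Hoxd4 and an intron of Hoxd3. It was 454 bp wide in iHoxc6, 441 bp in iHoxc9 and 412 bp in iHoxc10, and the nearest uninduced domain was 3.128 kb away. The HoxC domain (chr15:103018712-103018986) lay over the TSS of Hoxc4 and was 189, 275 and 584 bp wide. The HoxB domain (chr11:96306969-96307194) lay between genes, 3.746 kb from the TSS of Hoxb5, and was 195, 226 and 400 bp wide. No shared domain lay in the Hoxc6, Hoxc9 or Hoxc10 gene, whose coding sequence the transgenes repeat, or within 100 kb of Hprt or Gt(ROSA)26Sor.

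Over all protein-coding genes, 452 of 21938 (2.06%) had a shared domain in the gene or nearest to its TSS. Among genes of the TALE cofactors, a domain 219 kb from the TSS of Pbx3 was 497, 345 and 863 bp wide in iHoxc6, iHoxc9 and iHoxc10. The domain in Meis2 was 36, 604 and 344 bp wide.

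Genes of motor neuron identity had a shared domain in 4 of 20 cases and genes of motor columns and pools in 2 of 19. A domain 386 kb from the TSS of Slc5a7, the choline transporter of cholinergic neurons, was 225, 242 and 236 bp wide. A domain in Slit2, whose product repels axons, was 296, 467 and 295 bp wide. A domain 9.355 kb from Neurog2, the proneural factor of motor neuron progenitors, was 34, 410 and 297 bp wide. Foxp1 held 2, the printed one and another that was 42, 193 and 192 bp wide. The domain in Ebf2, a helix-loop-helix factor gene, was 166, 189 and 235 bp wide.

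Adhesion genes had a shared domain in 10 of 39 cases, axon guidance genes in 6 of 35, neuronal channel and synapse genes in 7 of 36 and neuronal transcription factor genes in 4 of 30. The lists overlapped, so some domains were counted more than once. Slit2 was in the motor neuron identity and axon guidance lists. Ebf2 was in the lists of motor columns and pools and of neuronal transcription factors. Examples were Ncam1, a neural adhesion molecule (238, 169 and 622 bp), Nrp1, a semaphorin receptor (166, 497 and 411 bp for the wider of its 2), and Syt1, a calcium sensor of synaptic vesicles (311, 476 and 285 bp). The transcription factor genes Zfhx3 and Zfhx4 had 2 each. In every list, as over all protein-coding genes, the median number of shared domains per gene was 0. None of the 25 mesoderm and endoderm genes and none of the 15 pluripotency genes had one. Their intervals reached 13.3% and 20.4%, so a share of 0 there cannot be told from the 2.06% over all protein-coding genes.

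The lists also differed in gene territory, which did not follow the counts in every list. The median gap between the neighbouring TSSs was 95.3 kb over all protein-coding genes, 3872 kb for the adhesion list, 1010 kb for axon guidance and 958 kb for channels and synapses, 965 kb for motor columns and pools, 684 kb for neuronal transcription factors and 288 kb for motor neuron identity, against 188 kb for mesoderm and endoderm and 261 kb for pluripotency genes. Per 10 Mb of sequence nearest to the genes of a list, there were 1.14 shared domains for adhesion genes, 2.14 for axon guidance, 2.64 for channels and synapses, 2.88 for motor columns and pools and 3.88 for neuronal transcription factors, against 1.56 over all protein-coding genes. All these list values rested on few domains. The value for motor neuron identity genes, 5.15, rested on 4 domains and that for motor columns and pools on 3. Those for axon guidance, for channels and synapses and for neuronal transcription factors rested on 6 each, and that for adhesion on 8. For Hox genes the value was 24.6, on 2 domains and 0.811 Mb of such sequence. The mesoderm and endoderm list and the pluripotency list, with none, had only 3.79 and 3.24 Mb of such sequence.

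In sequence, the centres of the shared domains had a lower median GC content than all iHoxc9 domains of at least 150 bp. It was slightly higher than that of their surroundings. The centres held posterior Hox cores with a following G more often than those surroundings. The median GC content of the central 150 bp was 44.7%, against 55.3% for all iHoxc9 domains of at least 150 bp and 42.7% for windows of the same length 1 kb to either side. Matches were counted on both strands, and TTTAT also lies inside TTTATNG and TGATTTAT. The motif TTTATNG was present in 130 of 419 centres (31.0%, 26.8 to 35.6), in 9.55% (7.74 to 11.7) of the 838 windows to either side and in 9.91% of all iHoxc9 domains of at least 150 bp. For TTTAT alone the shares were 64.7% (60.0 to 69.1), 47.4% (44.0 to 50.8) and 27.3%. For TAAT they were 80.2% (76.1 to 83.7), 63.8% (60.5 to 67.0) and 40.2%. The gaps to all iHoxc9 domains were smaller among windows with a GC content of 45% or less. There TTTATNG was in 37.8% of the shared domains and 25.5% of all iHoxc9 domains of at least 150 bp. These shares were 76.5% and 66.7% for TTTAT, and 89.4% and 83.0% for TAAT.

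The composite TGATTTAT was rare, but its share was 4.30% (2.73 to 6.69) in the centres and 0.835% (0.405 to 1.71) to either side. It was 1.92% in all iHoxc9 domains of at least 150 bp. The other day 4 sets had higher shares than the shared domains, with overlapping intervals. These were 5.80% (4.20 to 7.97) in iHoxc9 and iHoxc10 only and 6.45% (5.34 to 7.76) in iHoxc9 only. For all 4 day 4 groups the share was 5.41% (4.38 to 6.68). Among the low-GC windows above, 4.61% of the shared domains and 5.17% of all iHoxc9 domains held the composite. The composites of PBX with a central Hox half-site, TGATTGAT and TGATTAAT, were found in 6 and 4 shared domains. The MEIS site TGACAG was present in 12.6% (9.80 to 16.2) of the centres and in 92 of the 838 windows to either side, with overlapping intervals. The E-box CAGCTG was present in 17.9% (14.5 to 21.9) of the centres and 5.49% (4.14 to 7.24) of the windows to either side. For the E-box CAGATG these shares were 16.2% (13.0 to 20.1) and 13.2% (11.1 to 15.7). The ONECUT core ATCAAT was present in 60 of the 419 centres (14.3%) and 57 of the 838 windows (6.80%), and these intervals did not overlap. It was as common in iHoxc9 and iHoxc10 only (11.3%), iHoxc9 only (12.9%) and all 4 day 4 groups (14.8%), with overlapping intervals. Among the low-GC windows it was in 18.4% (13.8 to 24.1) of the shared domains and 14.3% (13.5 to 15.1) of all iHoxc9 domains. For the SOX core AACAAT, in 39 centres and 92 windows to either side, and the GATA site AGATAA, in 49 and 84, the intervals overlapped. A motif match describes the sequence and does not show that a factor was bound.

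**Figure D4:**
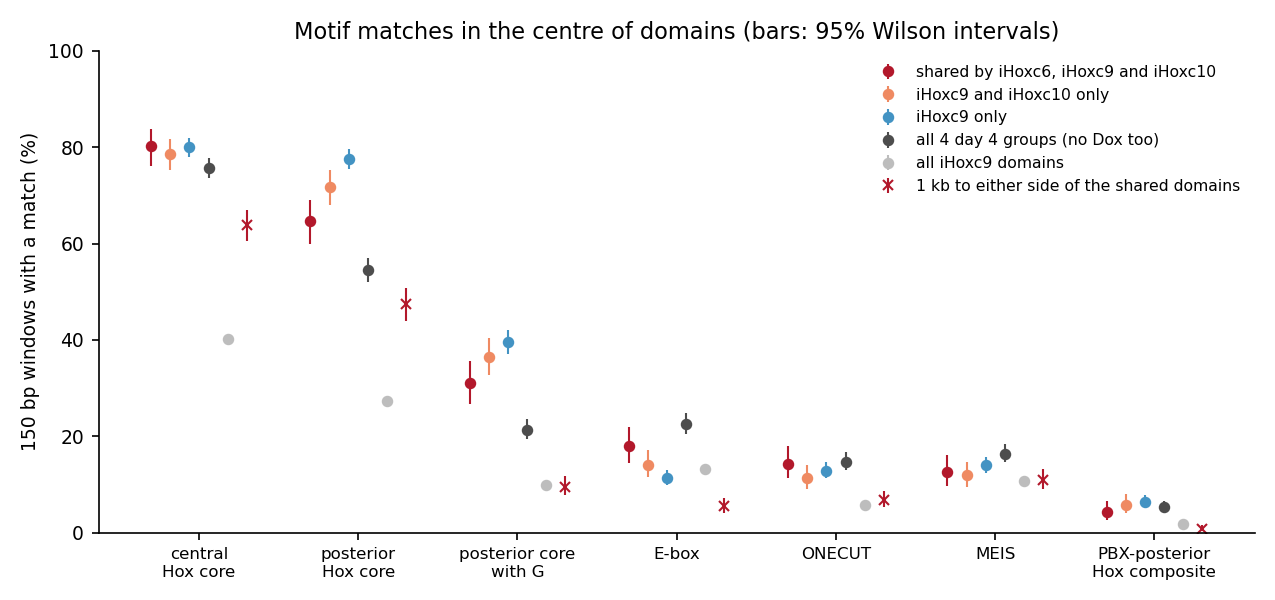
Share (%) of 150 bp windows with at least 1 match, with 95% Wilson intervals for counting, for 7 motifs in 5 sets of iHoxc9 domains and in windows 1 kb to either side of the shared domains. For the posterior core with G the shared domains stand at 31.0%, between 21.4% for the set also open without Dox and 39.5% for the iHoxc9-only set.

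Beside the other sets, the shared domains took an intermediate place for the posterior core, with or without G, and for the E-box CAGCTG. The posterior core with G was present in 21.4% (19.4 to 23.5) of the domains found in all 4 day 4 groups, 31.0% of the shared domains, 36.5% (32.7 to 40.4) of those in iHoxc9 and iHoxc10 only and 39.5% (37.2 to 42.0) of those in iHoxc9 only. For TTTAT the order was the same, with 54.5% (51.9 to 57.0), 64.7%, 71.8% (68.1 to 75.3) and 77.6% (75.5 to 79.6). The E-box CAGCTG took the opposite order, with 22.6% (20.5 to 24.8), 17.9%, 14.1% (11.5 to 17.1) and 11.4% (9.92 to 13.0). For the posterior core with G, for TTTAT and for the E-box, the intervals of the shared set and of the iHoxc9 and iHoxc10 set overlapped. The E-box interval of the shared set also overlapped that of the domains in all 4 day 4 groups. TAAT differed little, between 75.7% and 80.2% in the 4 sets.

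GC content moved with this order, with medians of 45.3%, 44.7%, 42.7% and 40.7%. Among windows with a GC content of 45% or less, the posterior core with G was present in 29.1% (25.8 to 32.5) of the domains in all 4 day 4 groups, 37.8% (31.6 to 44.4) of the shared domains, 38.8% (34.0 to 43.8) of those in iHoxc9 and iHoxc10 only and 41.3% (38.6 to 44.1) of those in iHoxc9 only. The interval of the shared domains overlapped those of all the other sets. For TTTAT in these windows the shares were 69.6% (66.1 to 72.9), 76.5% (70.4 to 81.6), 79.0% (74.6 to 82.8) and 82.7% (80.4 to 84.7). The interval of the shared domains again overlapped all the others. In these windows the E-box shares were 13.7%, 12.4%, 11.4% and 7.80%, and those of the first 3 sets lay within each other's intervals.

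Matches clustered at the domain centre. In the shared domains the posterior core with G reached 25.5 and 20.3 matches per 100 domains in the 100 bp bins to the left and right of the centre, and 8.59 and 5.97 in the outermost bins, 400 to 500 bp away. The E-box fell from 12.4 matches in both central bins to 5.01 and 4.06 in the outermost. TAAT reached 120 and 118 in the central bins and 88.3 and 97.1 in the outermost.

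**Figure D5:**
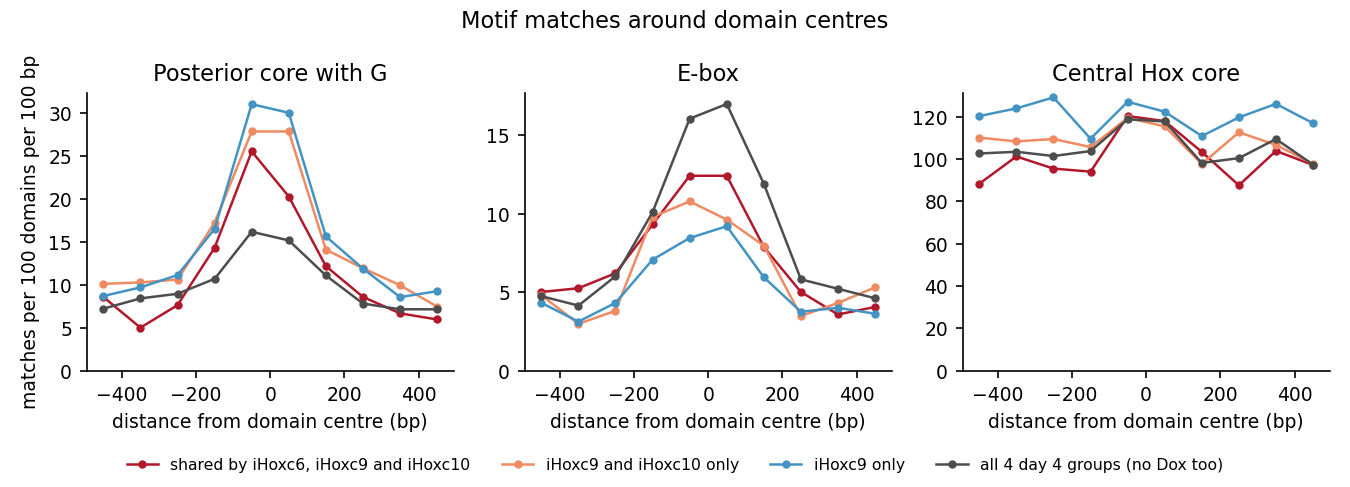
Matches per 100 domains in 100 bp bins, from 500 bp to the left to 500 bp to the right of the iHoxc9 domain centre, for the posterior core with G, the E-box and the central Hox core in 4 sets of domains. In the shared domains the posterior core with G peaks at 25.5 and the E-box at 12.4 matches, both in the bins beside the centre.

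Within the shared set, the share of domains with a posterior core was lower where the iHoxc6 domain was wide. The posterior core TTTAT was present in 59.8% (53.1 to 66.2) of the 214 shared domains at least 150 bp wide in iHoxc6, in 69.8% (63.2 to 75.6) of the 205 narrower ones and in 74.8% (66.1 to 81.8) of the 115 under 50 bp wide there. The interval of the first class overlapped those of the others, and median GC contents were 44.7%, 44.7% and 45.3%. The E-box CAGCTG stood at 19.6% (14.9 to 25.5) in the first class and 13.0% (8.07 to 20.4) in the last, and TAAT at 81.3% and 80.9%. By width in iHoxc10, the posterior core was present in 65.7% (60.0 to 71.0) of the 280 of at least 150 bp and 62.6% (54.3 to 70.2) of the 139 narrower ones.

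By E-box, the posterior core was present in 53.3% (42.2 to 64.2) of the 75 with CAGCTG and 67.2% (62.0 to 71.9) of the 344 without, at median GC contents of 47.3% and 44.0%. The intervals overlapped. In introns and in intergenic sequence the posterior core stood at 66.2% (59.7 to 72.2) and 62.1% (54.8 to 69.0). Its share was 67.0% (57.2 to 75.6) in the 97 shared domains with no uninduced domain within 10 kb and 59.8% (50.1 to 68.8) in the 102 with one within 1 kb. Of all 419, 148 centres held no TTTAT, 168 held 1, 74 held 2 and 29 held 3 or more.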

How the data were processed

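The deposited files were lists of domain start and end coordinates in bp, 1 per group, made from both samples. The authors mapped paired-end reads to mm10 with Bowtie2 and defined domains with DomainFinder. The submitters' processing notes named Bowtie2 2.2.2 and Picard 2.8.2. The lists held no heights, read counts or p-values.

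Starts were taken to count from 0, since no source states their base; coordinates are printed counting from 1 and may be off by 1 bp. Domains were used without merging. Genes came from GENCODE M21 and sequence from GRCm38. Motifs were searched on both strands in the central 150 bp of the iHoxc9 domain. Of 20 motifs searched, none of the NFI, retinoic acid receptor and GLI motifs matched a shared domain. The EBF motif matched 5, the CTCF motif 5, the AP-1 motif 15 and the POU octamer 4.

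Sites named were the 10 with the largest minimum width over the induced lists, those at promoters, the 10 genes with the most shared domains, and genes of 10 fixed lists with up to 4 examples each by minimum width; other examples were chosen after their values were seen. One item of the cofactor list, and that list's count, are not reported here. The members and lists were chosen with earlier results of these data known. Overlaps, distances and motif matches were checked on planted intervals and sequences. Scripts ran on Python 3.11.15 with NumPy 2.4.6, SciPy 1.17.1, plots with Matplotlib 3.10.9.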

Additional observations from a re-analysis of the deposited data

How the results depend on the processing

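No paired analysis was possible because a single list per group was made from both samples, and for the same reason leaving out each replicate in turn was not run. Without the no Dox list 1915 domains qualified, and without the EB list 449; leaving out the day 2 list was not run. The number was 780 with no minimum width, 342 at 200 bp, 200 at 300 bp and 154 with at least 150 bp in each induced list. Requiring an overlap of at least 50% of the shorter domain left 376, and no uninduced domain within 500 bp left 344. Starting from the iHoxc6 list gave 321 and from the iHoxc10 list 429. The share at promoters rose to 5.49% with promoters of 5 kb either side. Searched over the whole domain, which is wider, TTTAT was in 79.5%, TTTATNG in 48.4%, TGATTTAT in 9.07%, TAAT in 91.2% and CAGCTG in 31.5% of the shared domains. In windows with a GC content of 45% or less, TTTAT was in 76.5%, TTTATNG in 37.8%, TAAT in 89.4% and CAGCTG in 12.4%. Centred on the iHoxc6 domain, TAAT was in 74.2%. The other settings kept these shares within the counting intervals. The settings for TTTATNG and CAGCTG, and the GC limit in the compared sets, were chosen after seeing the data. Limits in depth could not be assessed, since the lists hold no counts. Narrow calls in iHoxc6, and the no Dox list's own calling settings, bear on which domains qualified, and their part was not tested.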

Other observations

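Among 469 words of 6 bases present in at least 10% of the shared domains' centres, counted on both strands, those with the highest ratio to the windows 1 kb to either side were CCATAA, at 19.6% against 5.61%, and CAGCTG, at 17.9% against 5.49%. CCATAA is the reverse complement of TTATGG and so overlaps the posterior core with G. AATTGC followed, at 10.5% against 3.22%, then CATAAA, at 32.7% against 12.4%, and AATGGC, at 17.9% against 6.80%. These words were picked for their values and carry no test.

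The deposited lists were not in genome order, and the basis of their order was not given in the sources used here. Position in the iHoxc9 list ran with width (Spearman's rho -0.94 over 63504 domains, wide ones first). The shared domains stood at a median of 33.5% of the way down the iHoxc9 list, 48.1% down the iHoxc6 list and 51.8% down the iHoxc10 list. In the iHoxc9 list the domains found in all 4 day 4 groups stood at 31.2% and those in iHoxc9 only at 41.4%.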
